A study of Homo sapiens with 2 samples.

Results

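The survival and death genes of the BCL2 family described here, 10 in number, were taken by symbol from the 50868 genes of the deposited expression table: 5 pro-survival genes (BCL2, BCL2L1, BCL2L2, MCL1 and BCL2A1), 2 effector genes (BAX and BAK1) and 3 BH3-only genes (BCL2L11, BBC3 and PMAIP1). The BCL2 family decides whether a stressed cell opens the outer membrane of its mitochondria, the step that releases cytochrome c and commits the cell to apoptosis. Pro-survival proteins (BCL2, BCL-XL, BCL-W, MCL1 and BFL1) bind and hold the effectors BAX and BAK, which form the pore. BH3-only proteins such as BIM, PUMA and NOXA carry stress signals by occupying the groove of the pro-survival proteins, and some also engage the effectors directly. MCL1 and BCL-XL are the pro-survival proteins that hepatocytes are known to depend on, and sorafenib is known to lower MCL1 protein through reduced translation, which RNA counts do not measure.

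Messenger RNA was sequenced from 2 cultures labelled HepG2, a human liver cancer line. The parental culture was labelled wild type and received no treatment. The treatment label of the resistant culture was sorafenib, a multikinase inhibitor used against liver cancer. This culture was derived by raising sorafenib from 2.5 µM in increments of 0.5 µM to 7 µM. Beyond that label, the sources used here do not say whether the drug was present at harvest, or whether the resistant culture is a pool or 1 clone. Each group was 1 library, with 18067146 counts for the parental and 16811907 for the resistant culture, so no value has a replicate check and no test of the conditions was possible. All intervals are 95% intervals of counting error only, exact Poisson for a level and exact Clopper-Pearson for a fold, and PCR copies are not independent molecules. None of 8 defining hepatocyte or HepG2 genes was measured in either library: ALB, AFP, TTR, APOA1, SERPINA1, FGB and GPC3 had 0 counts in both and HNF4A had 2 counts in each, so the libraries are named by their labels only. In bulk RNA, fewer cells of a type and less RNA per cell cannot be told apart.

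Coding sequence is shown first for what the family shares and then for a junction that bears on how counts are assigned. The family feature is the BH3 core, the short helix by which family members bind each other, shown for the BH3-only gene and the pro-survival gene that differed most between the libraries and for 3 further members. The capitals mark the 6 codons of a leucine or methionine, any 3 residues, a glycine or alanine, and an aspartate, read from the principal coding transcripts of GENCODE 29.
BCL2L11: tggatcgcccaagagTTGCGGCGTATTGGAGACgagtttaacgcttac
BCL2L2: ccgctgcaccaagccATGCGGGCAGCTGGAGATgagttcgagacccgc
MCL1: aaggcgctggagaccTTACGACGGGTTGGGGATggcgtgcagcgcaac
BAX: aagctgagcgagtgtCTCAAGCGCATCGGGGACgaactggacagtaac
PMAIP1: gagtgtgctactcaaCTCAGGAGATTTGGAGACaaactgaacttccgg
Of the 10 members, 9 hold 1 such stretch each, and BCL2A1 holds none that this pattern finds. The pattern is short, and 29.1% of 19497 genes with a complete coding sequence in that annotation also hold it.

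The junction is the point at which BCL2L2 and its read-through partner part. BCL2L2-PABPN1 is annotated as a transcript that starts in BCL2L2 and is spliced into the next gene, PABPN1, the gene of a nuclear poly(A) binding protein. Both transcripts share their first 144 codons up to chromosome 14 position 23308199 (GRCh38, plus strand). BCL2L2 then goes on at 23308816 and the read-through at 23322181, and capitals mark the 30 coding bases after the junction.
BCL2L2: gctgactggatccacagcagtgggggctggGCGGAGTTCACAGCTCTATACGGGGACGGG
BCL2L2-PABPN1: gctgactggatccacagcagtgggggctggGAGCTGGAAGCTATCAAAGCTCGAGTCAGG
A read that lies wholly in lower-case sequence fits both genes, while a read past the junction fits 1 of them. The 813 exon bases that both genes hold are 19.4% of the exon bases of BCL2L2 and 52.5% of those of the read-through. A further 653 bases of the read-through (42.2%) are shared with PABPN1, so few of its exon bases are its own, and its count depends on how shared reads were assigned. The longest exon of BCL2L2, 2944 bases or 70.3% of its exon bases, overlaps neither partner.

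The comparison asks which survival and death genes differ between cells selected in sorafenib and parental cells. In the resistant library BCL2L2, which encodes the survival protein BCL-W, was 5.51-fold higher than in the parental one, and BCL2L11, which encodes the BH3-only killer BIM, 3.58-fold higher. Summed with the read-through gene that shares its exons, BCL2L2 was 3.02-fold higher. A sum of BCL2L11 with an opposite-strand gene, 5.55% of whose exon bases overlap its exons, was 1.93-fold higher. That second sum was chosen after seeing the data. BCL2L1, which encodes BCL-XL, stood at 1.35-fold, and the effectors BAX and BAK1 and the BH3-only genes BBC3 and PMAIP1 lay within 5% of parity, with fold intervals that hold 1. BCL2A1 was not detected in either library.

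A gene was called measured when its larger value reached 1 CPM (counts scaled to a common library size with TMM factors). It was past the size rule when the log2 ratio of resistant to parental CPM, with a pseudocount of 1 added to each, was at least 1 or at most -1. Of the 9 measured members, 2 (22.2%) were past the size rule, both higher, where 2.30% of all 14686 measured genes were past it in either direction and 1.31% were higher. The members were chosen with earlier results of these data known, so these shares are no test of the family. With the deposited FPKM, or with BCL2L11 summed with its opposite-strand neighbour, 1 member, BCL2L2, was past the rule. The other 7 measured members had log2 ratios between -0.16 and 0.43, and the fold interval of 4 of them held 1. The median log2 ratio was 0.05 over the 9 members and -0.0018 over all measured genes, whose middle 95% lay between -0.71 and 0.78.

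**Figure D1:**
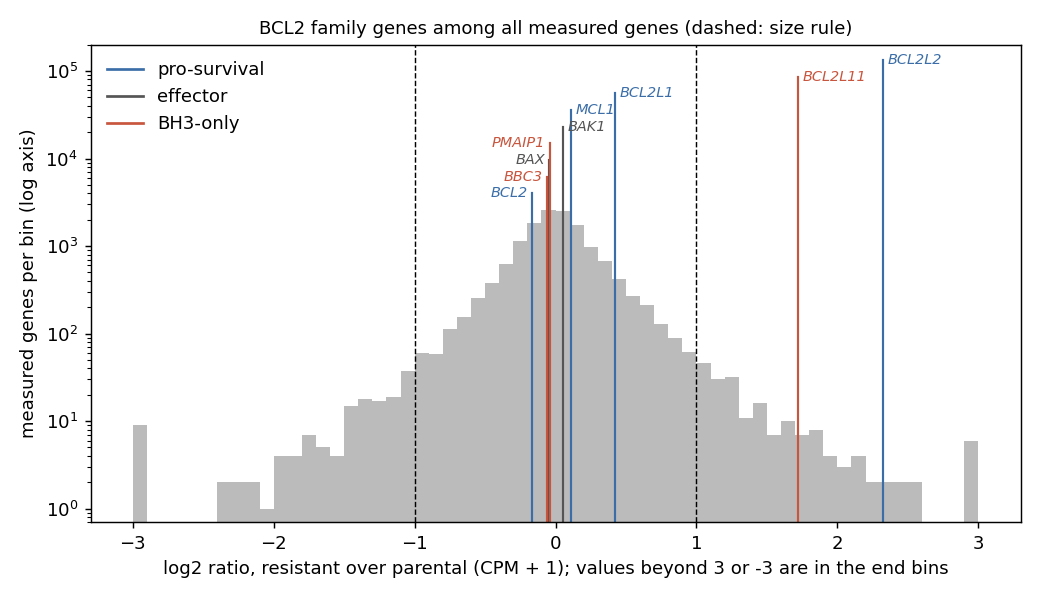
Histogram of the log2 ratio of resistant to parental CPM (pseudocount 1) for the 14686 measured genes (grey, log axis of gene number), with a vertical line for each of the 9 measured BCL2 family genes. BCL2L2 at 2.33 and BCL2L11 at 1.72 stand in the right tail past the dashed size rule, and the other 7 lie between -0.16 and 0.43.

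Among the pro-survival genes, BCL2L2 (ENSG00000129473; chromosome 14, 23298790 to 23311759, plus strand) had 149 parental and 759 resistant counts. This was 8.22 CPM (6.96 to 9.65) and 45.3 CPM (42.1 to 48.6), a fold of 5.51 (4.61 to 6.61) and a log2 ratio of 2.33. It had the 11th highest log2 ratio of all measured genes. The read-through BCL2L2-PABPN1 went the other way, from 155 to 89 counts, a fold of 0.621 (0.473 to 0.811) and a log2 ratio of -0.60, within the size rule. The count difference, resistant minus parental, was 610 for BCL2L2 and -66 for the read-through before scaling, and 37.1 and -3.24 CPM after it. How the reads of shared exon bases were assigned was not tested. The authors' deposited table called BCL2L2 UP with a log2 fold change of 2.45, as it did 1.26% of the 21518 genes it compared.

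Summed over both genes, the locus had 304 and 848 counts, 16.8 CPM (14.9 to 18.8) and 50.6 CPM (47.2 to 54.1). The sum was 3.02-fold higher (2.64 to 3.45), and its log2 ratio of 1.54 was past the size rule but smaller than for BCL2L2 alone. With the deposited FPKM, in which each gene is divided by its length, the log2 ratio of the sum was 0.75, within the rule. BCL2L2 held 49.0% of the counts of the pair in the parental library (Clopper-Pearson interval 43.3 to 54.8) and 89.5% in the resistant library (87.2 to 91.5). These intervals do not cover how reads of shared exon bases were assigned, so the shares are of assigned counts, not of transcripts. PABPN1 itself had 2043 and 2114 counts, at 1.12-fold (1.05 to 1.19). With PABPN1 added, whose counts outnumber those of the pair, the sum of all 3 genes had a log2 ratio of 0.45. On the opposite strand PPP1R3E, a gene of a protein phosphatase regulatory subunit, overlaps 206 exon bases of BCL2L2 and had 354 and 199 counts, at 0.608-fold (0.508 to 0.725). PPP1R3E went against the direction of BCL2L2, and the sum of both, chosen after seeing the data, had a log2 ratio of 1.02. The shared bases are 3.71% of the exon bases of PPP1R3E.

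**Figure D2:**
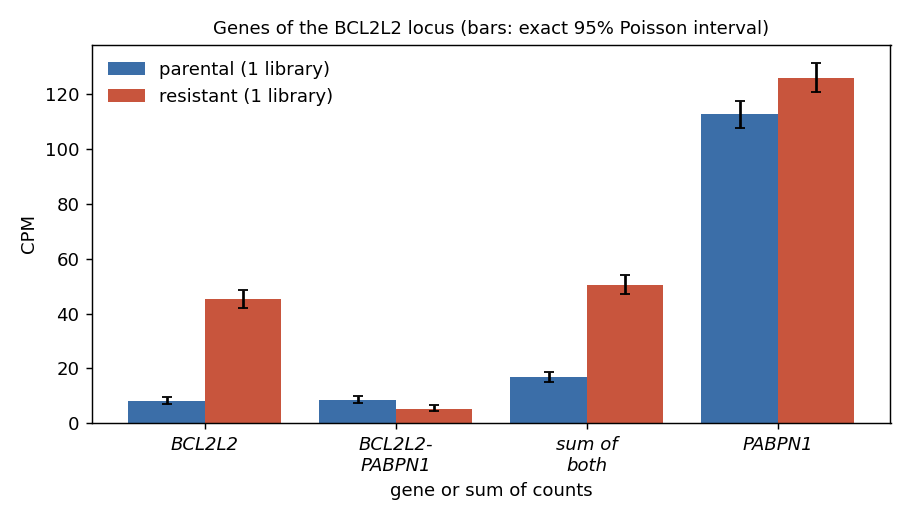
CPM of BCL2L2, of the read-through BCL2L2-PABPN1, of their sum and of PABPN1 in the parental (blue) and resistant (red) library, 1 library each, with exact 95% Poisson intervals. BCL2L2 is at 8.22 and 45.3 CPM and the sum at 16.8 and 50.6 CPM, while BCL2L2-PABPN1 is lower in the resistant library and PABPN1 differs little.

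MCL1, a short-lived survival protein gene on chromosome 1, was the most abundant member. It had 6134 parental and 6127 resistant counts, 339 CPM (330.1 to 347) and 366 CPM (356 to 375). The fold of 1.08 (1.04 to 1.12) was small although its interval excludes 1, since intervals from counts of this size are narrow and do not cover differences between cultures. BCL2L1 on chromosome 20 had 860 and 1074 counts, 47.5 CPM (44.3 to 50.7) and 64.1 CPM (60.3 to 68.0). Its fold of 1.35 (1.23 to 1.48) and log2 ratio of 0.43 made it the member nearest to the size rule among those within it, and 91.5% of measured genes had a lower log2 ratio. BCL2 on chromosome 18, the founding member of the family, had 689 and 567 counts and had the lowest log2 ratio of the measured members, -0.16, and a fold of 0.890 (0.795 to 0.996). BCL2A1 on chromosome 15, the gene of BFL1, had 0 counts in both libraries, where the worth of 3 counts is 0.166 and 0.179 CPM and the upper limits of the exact intervals are 0.204 and 0.220 CPM. No fold can be given for it.

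The effector genes differed by less than counting error. BAX on chromosome 19 had 711 and 637 counts, 39.2 CPM (36.4 to 42.2) and 38.0 CPM (35.1 to 41.1), a fold of 0.968 (0.869 to 1.08). BAK1 on chromosome 6 had 556 and 534 counts, 30.7 CPM (28.2 to 33.3) and 31.9 CPM (29.2 to 34.7), a fold of 1.04 (0.920 to 1.17). Both fold intervals hold 1, and differences within them were not detectable at this depth.

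Among the BH3-only genes, BCL2L11 (ENSG00000153094; chromosome 2, 111119378 to 111168447, plus strand) had 147 parental and 487 resistant counts. BIM, like PUMA, binds every pro-survival member, and it is known to be held down by ERK signalling. The counts came to 8.11 CPM (6.85 to 9.54) and 29.1 CPM (26.5 to 31.8), a fold of 3.58 (2.97 to 4.34) and a log2 ratio of 1.72. It had the 40th highest log2 ratio of all measured genes, and the authors' deposited table also called it UP, with a log2 fold change of 1.83. BCL2L11 shares no exon bases with another gene on its own strand. On the opposite strand the exons of MIR4435-2HG, a long non-coding RNA gene, cover 727 of its exon bases (10.9%). These bases are 5.55% of the exon bases of MIR4435-2HG, most of which thus lie outside the exons of BCL2L11. MIR4435-2HG had 516 and 699 counts, at 1.46-fold (1.31 to 1.64), a gain of 183 counts beside the 340 of BCL2L11. The sources used here do not say whether counting used strand, and the part of MIR4435-2HG in the BCL2L11 value was not tested. The sum of both genes was 1.93-fold higher (1.76 to 2.13), a log2 ratio of 0.93, just within the size rule, and BCL2L11 alone had 0.92 by the deposited FPKM with a pseudocount of 1 FPKM. Gene counts do not tell the isoforms of BIM apart, which differ in potency.

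BBC3 and PMAIP1, the genes of PUMA and NOXA, did not follow BCL2L11. BBC3 on chromosome 19 had 128 and 113 counts, at 0.954-fold (0.734 to 1.24). PMAIP1 on chromosome 18 had 974 and 875 counts, at 0.971-fold (0.885 to 1.07), and was the most abundant of the 3 BH3-only members. The remaining overlaps in the annotation held few counts: ABALON, opposite to BCL2L1, had 1 and 0 counts, GGNBP1, opposite to BAK1, had 0 in both, and ADAMTSL4-AS1, beside MCL1, had 2 in each. MIR3190 and MIR3191, which overlap BBC3, were not analysed here. NOXA binds MCL1 preferentially, and MCL1 and PMAIP1, the most abundant of the pro-survival members and of the 3 BH3-only members, both had log2 ratios close to 0.

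Levels can be compared between genes only per length, and here CPM was divided by the exon length of each gene in kilobases, overlapping exons counted once. In the parental library MCL1 stood at 77.4 CPM per kb, PMAIP1 at 24.1, BAX at 15.2, BCL2L1 at 14.3, BAK1 at 13.9, BCL2 at 3.23, BBC3 at 2.22, BCL2L2 at 1.96 and BCL2L11 at 1.22. The intervals of BAX, BCL2L1 and BAK1 overlapped, as did those of BBC3 and BCL2L2, so their order is not resolved. In the resistant library the order was MCL1 at 83.6 CPM per kb, PMAIP1 at 23.4, BCL2L1 at 19.3, BAX at 14.7, BAK1 at 14.4, BCL2L2 at 10.8, BCL2L11 at 4.36, BCL2 at 2.88 and BBC3 at 2.12. There BAX and BAK1 overlapped, and every other pair of neighbours in the order had separate intervals. By these values BCL2L2 went from the 8th place to the 6th and BCL2L11 from the 9th to the 7th, both passing BCL2. Both stood above BBC3 in the resistant library, but the parental order of BCL2L2 and BBC3 is not resolved. BCL2L2 was taken here without the read-through, and its place with the locus sum was not computed. By the deposited FPKM, whose length term counts overlapping exons repeatedly, BCL2L2 was the 7th in the parental and the 4th in the resistant library. Its resistant interval of 7.88 to 9.10 FPKM overlaps those of BCL2L1 (8.52 to 9.61) and BAK1 (7.54 to 8.95). It lies above that of BAX (5.97 to 6.98).

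**Figure D3:**
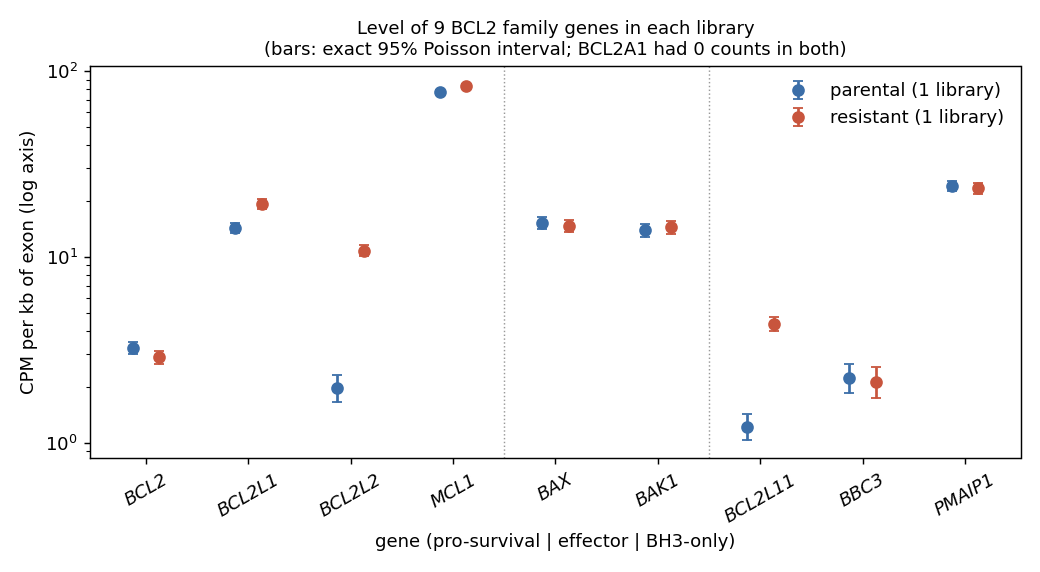
Level of the 9 BCL2 family genes with counts, as CPM per kilobase of exon on a log axis, in the parental (blue) and resistant (red) library, 1 library each, with exact 95% Poisson intervals. BCL2L2 and BCL2L11 are the genes whose red point stands far above the blue one, BCL2L1 is moderately higher, and the points of BAX, BAK1, BBC3 and PMAIP1 nearly coincide.

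Among the members only, the make-up of the pro-survival and BH3-only roles differed between the libraries. Of the summed pro-survival level per kb, MCL1 made up 79.9% in parental and 71.7% in resistant cells, BCL2L1 14.8% and 16.6%, and BCL2L2 2.02% and 9.27%. BCL2L2 was again taken alone, at 5.51-fold, whereas its sum with the read-through was 3.02-fold higher. BCL2L11 made up 4.43% of the summed level of the 3 BH3-only members in the parental library and 14.6% in the resistant library, where PMAIP1 still held 78.3%. The summed level was 96.96 and 116.6 CPM per kb for the pro-survival genes, 29.04 and 29.09 for the effectors and 27.5 and 29.8 for the BH3-only members. The 7 other BH3-only genes, described below, are not in these sums. They had 6082 parental and 4557 resistant counts before scaling, with 4 positive and 3 negative log2 ratios. BMF among them was at 81.0 and 40.9 CPM. The sums per kb are of RNA and say nothing of protein amounts.

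The rest of the pathway was described with 8 lists of 71 genes, of which 64 were measured. Past the size rule was 1 of them (1.56%), which was higher, beside the 2.30% of all measured genes. The lists had a joint median log2 ratio of -0.05. Over all 14686 measured genes, 7292 log2 ratios were positive and 7394 negative. The lists were chosen with earlier results of these data known, so counts of signs within them are no test. The other BH3-only genes, 7 of 7 measured, had a median of 0.05 with none past the size rule. That median turned to -0.15 when 10 CPM was required of a gene. The one nearest to it was BMF, whose protein is released from the cytoskeleton upon loss of anchorage, which went the opposite way to BCL2L11, from 1468 to 685 counts at 0.504-fold (0.460 to 0.553) and a log2 ratio of -0.97. HRK, a BH3-only gene known from neurons, was at 1.78-fold (1.19 to 2.67) on 42 and 69 counts. BNIP3, a hypoxia-induced mitophagy receptor gene, was at 0.808-fold (0.750 to 0.870), and BAD, which growth factor signalling inactivates, at 1.15-fold (0.991 to 1.33). Of the 6 other multidomain or atypical genes, 3 were measured: BOK, BCL2L13 and BCL2L12, with log2 ratios of 0.08, -0.05 and -0.04. BCL2L14 and BCL2L15 had 0 counts in both libraries and BCL2L10 had 0 and 1.

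The 12 genes of the apoptosome, caspases and released factors were all measured, with 10 negative and 2 positive log2 ratios. Their median was -0.16 and none was past the size rule. CASP2, an initiator caspase gene, was at 0.540-fold (0.468 to 0.623), and APAF1, the scaffold of the apoptosome, at 0.688-fold (0.614 to 0.771). CYCS, the cytochrome c gene, was at 1.28-fold (1.22 to 1.34), and DIABLO, which encodes the IAP antagonist SMAC, at 0.815-fold (0.725 to 0.916). Of 8 genes of inhibitors of apoptosis (IAP) and their regulators, 7 were measured, with a median of 0.07 and none past the size rule. BIRC7 was at 1.63-fold (1.23 to 2.188) and XIAP, the direct caspase inhibitor, at 1.31-fold (1.08 to 1.59). NAIP had 21 and 16 counts, and BIRC3 was at 1.10-fold (1.01 to 1.19).

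Genes that act on MCL1 protein or its transcription also lay within the size rule, 9 of 10 measured, with a median of -0.03. CDK9, the transcription elongation kinase on which short-lived MCL1 mRNA depends, was at 0.792-fold (0.718 to 0.873), and FBXW7, a ubiquitin ligase subunit, at 1.19-fold (1.03 to 1.38). BTRC and MARCHF5, both ubiquitin ligase genes, were at 0.867-fold (0.779 to 0.965) and 0.871-fold (0.810 to 0.937). Mitochondrial partners had a median of -0.10, with 10 of 11 negative, beside 7394 of all 14686 measured genes, and none past the size rule. VDAC2, a porin that BAK binds, was at 0.769-fold (0.717 to 0.824) and DNM1L, the fission GTPase gene, at 0.773-fold (0.730 to 0.819). BCAP31 was at 0.819-fold (0.769 to 0.872) and VDAC3 at 0.899-fold (0.842 to 0.959).

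Of 8 transcription factor genes known to act on BH3-only genes, 6 were measured, with 4 negative and 2 positive log2 ratios. Their median was -0.20 and none was past the size rule. DDIT3, which encodes CHOP and is known to induce BIM under endoplasmic reticulum stress, was at 0.545-fold (0.491 to 0.605). Whether any of these factors bears on the BCL2L11 value was not tested. FOXO3, a known activator of BCL2L11, had 1530 and 1444 counts, at 1.02-fold (0.949 to 1.10), FOXO4 was at 0.688-fold (0.599 to 0.789) and E2F1 at 0.756-fold (0.682 to 0.837).

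Among 9 genes of proteins that tether BH3-only proteins in the cytosol, all measured with a median of -0.04, YWHAB, a 14-3-3 gene, was past the size rule with 1777 and 3947 counts at 2.40-fold (2.27 to 2.54). YWHAG and YWHAZ, also 14-3-3 genes, were at 1.13-fold (1.09 to 1.17) and 1.12-fold (1.09 to 1.15). DYNLL1, a dynein light chain gene whose product binds BIM, was at 0.941-fold (0.874 to 1.01). Of the 9 log2 ratios, 3 were positive and 6 negative, the lowest at -0.09, and the remaining 14-3-3 genes of the list were among the negative ones.

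**Figure D4:**
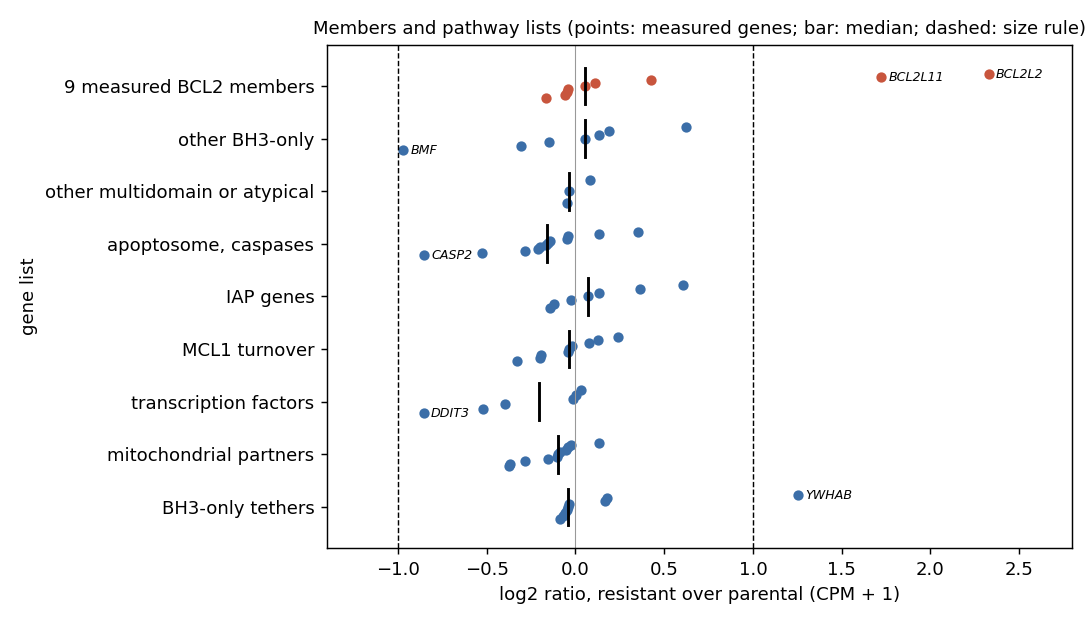
Log2 ratio of resistant to parental CPM (pseudocount 1) for each measured gene (points) of the BCL2 members (red) and of 8 pathway lists (blue), with each median as a black bar and the size rule dashed. Apart from BCL2L2 and BCL2L11, only YWHAB lies past the size rule, and BMF at -0.97 lies just inside it on the lower side.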

How the data were processed

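The authors deposited whole-number counts per gene for 1 parental and 1 resistant library, per the file headers. Per the submitters' processing notes, bcl2fastq 2.19, HISAT2 2.0.4 and StringTie 1.3.0 were used on GRCh38. The sources used here do not give the annotation release, the counting settings or the use of strand. The authors also deposited FPKM and, per the file headers, a table of their own comparison, whose columns are log2 fold change, p-value and q-value. That table compares 1 library with 1 library, so its p-values were not used.

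Counts were scaled to CPM with TMM factors of edgeR 4.0.16 in R 4.3.3, and no model was fitted. Log2 ratios carry a pseudocount of 1 CPM, which understates low genes, and folds have none. Exons came from GENCODE 29, whose coordinates equal the deposited ones for every member. The calculation was tested on simulated Poisson counts with known folds, which hold neither differences between cultures nor reads shared between genes. Alternatives were library totals, DESeq2 1.42.0 size factors, upper-quartile factors, totals without mitochondrial genes, deposited FPKM, pseudocounts of 0.5 and 0.1 CPM, a 1.5-fold rule, other filters and sums over overlapping genes. Besides the members and overlapping genes, each list gave its up to 4 measured genes with the largest absolute log2 ratio. Members and lists were chosen with earlier results of these data known. Some genes that this rule takes, and a list fixed with the others, are not reported here, and the counts over the lists leave them out.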

Additional observations from a re-analysis of the deposited data

How the results depend on the processing

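With 1 library per group no replicate could be left out. Of the members, 2 were past the size rule under library totals, DESeq2 size factors, upper-quartile factors, totals without mitochondrial genes, both smaller pseudocounts, the 1.5-fold rule, and the locus sum in place of BCL2L2. With deposited FPKM the count was 1, since BCL2L11 had a log2 ratio of 0.92 and BCL2L2 one of 1.89: the pseudocount of 1 weighs more on FPKM, which is smaller than CPM for these genes. The log2 ratio of the BCL2L2 locus was 0.75 with FPKM, in which the read-through counts weigh more because it is shorter, and 0.45 with PABPN1 added. In an alternative chosen after seeing the data, BCL2L11 summed with the opposite-strand MIR4435-2HG had a log2 ratio of 0.93, which left 1 member past the rule. BCL2L2 summed with PPP1R3E, also chosen after seeing the data, had 1.02. No member changed sign under the alternatives run, but the median of the other BH3-only genes turned from 0.05 to -0.15 when 10 CPM was required, which leaves fewer genes. Of all genes, 338 were past the size rule, and 207 when 10 CPM was required. For BCL2L2 and BCL2L11, depth is the greater limit in the parental library, at 149 and 147 counts. BBC3 had the fewest counts of the measured members, 128 parental and 113 resistant.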

Other observations

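The length by which the deposited FPKM is divided is not the exon length of the gene. For 92.7% of 13063 genes with at least 20 resistant counts and equal coordinates, it equals, to within 1%, the summed length of all distinct annotated exons in GENCODE 29, in which overlapping exons of different transcripts are counted repeatedly. It equals the length with overlaps counted once for 14.5% of them, and its median ratio to that length is 1.51. Genes with many annotated isoforms are thereby listed at lower levels. Among the BCL2 family the ratio is 2.29 for BCL2L11, 2.27 for BAX, 2.18 for MCL1 and 2.13 for BCL2L1, against 1.27 for BCL2L2 and 1.38 for BCL2. Folds of a single gene without a pseudocount are not touched by this, whereas FPKM ratios with a pseudocount and FPKM sums over genes are. The same length was used in both libraries for 100% of 13649 genes with at least 20 counts in each, to within 0.1%.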
